A study of Mus musculus with 12 samples.

Results

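Homologous recombination, the Fanconi anemia pathway and the DNA damage checkpoint were followed through 36 mouse genes that encode their sensors, mediators, nucleases and kinases. The genes were taken from a list of symbols, by name and not by a threshold on any value, and all 36 were found among the 27179 genes of the count table. The list was, however, chosen with earlier results of these data known. All 36 also passed the filter on low counts, which left 13947 genes. They were sorted by role into 10 homologous recombination mediators, 4 genes of break sensing and end resection, 3 helicase and nuclease genes, 9 genes of the Fanconi anemia core and its ID2 complex, 6 checkpoint genes and 4 genes of other repair routes.

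RNA-seq was performed on liver tissue of 12 mice in 4 groups of 3. The labels give no strain, age or sex. The methods name young adult male C57/Bl3 mice for tumor work in general, whereas a mixed 129/Ola and C57BL/6 background is named elsewhere in the study for this oncogene model. The mice were kept on chow (CD) or on a diet low in protein (LPD) and injected with vector (Vec) or with oncogene plasmids. The oncogenes were c-MET, a receptor tyrosine kinase, and ΔN90-β-catenin, a stabilized β-catenin that lacks its amino terminus. They were delivered together with the Sleeping Beauty transposase by hydrodynamic tail vein injection, which reaches only a part of the hepatocytes and leaves the rest of the liver unmodified. Livers of all groups were taken when the CD c-MET/β-catenin mice reached their endpoint, and the sample titles call the Vec mice WT. Libraries held 19476209 to 31990267 counts. The labels name the cell type as hepatocyte, but markers of macrophages, stellate and endothelial cells, cholangiocytes, lymphocytes and erythroid cells were also counted, so the values describe whole liver tissue. In such tissue, more cells that express a gene and more RNA of it per cell cannot be told apart. Nothing in the labels ties the libraries to separate litters or days, and p-values measure the spread between these 3 livers per group.

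A chromosome break in a dividing cell is repaired by homologous recombination, in which nucleases trim the ends and the BRCA1, BARD1, PALB2 and BRCA2 proteins prepare them for strand exchange, so that the sister chromatid can serve as template. Links between the strands of DNA stop the replication fork and are removed by the Fanconi anemia pathway, whose core complex marks FANCD2 and FANCI with ubiquitin. ATM and ATR are kinases that signal breaks and stalled forks and hold the cell cycle. In resting hepatocytes, which rarely divide, many genes that act on replicating DNA are kept at a low level.

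The members covered a wide range of levels in the LPD Vec livers, the group with the closest replicates. On the scale of CPM, counts scaled to the size of the library, per kilobase of exon, the mean level ran from 9.02 for Nbn, part of the complex that binds broken ends, to 0.0102 for Exo1, an exonuclease of end resection. Other members at the upper end were Fance at 6.33, Atrip at 3.76 and Fancl at 3.57. At the lower end were Polq at 0.0209, Fancd2 at 0.0428 and Eme1 at 0.0498. A set of 7 members had few reads outside the CD c-MET/β-catenin livers and passed the filter mainly through that group, namely Rad51ap1, Rad54l, Exo1, Eme1, Fancd2, Polq and Neil3.

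Libraries of 1 group also differed from each other in these genes. CD Vec replicate 2 had the lowest level of its group for 26 of the 36 members, with a median member 0.38 below the mean of the other CD Vec livers on the log2(CPM + 0.5) scale, against 0.03 below for all genes tested. CD c-MET/β-catenin replicate 1 had the lowest level of its group for 26 members as well, with a median difference of -0.47. With the latter library left out, Rad50 was called higher on CD (0.53, adjusted p = 0.042). The map of members by library shows these columns.

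**Figure D1:**
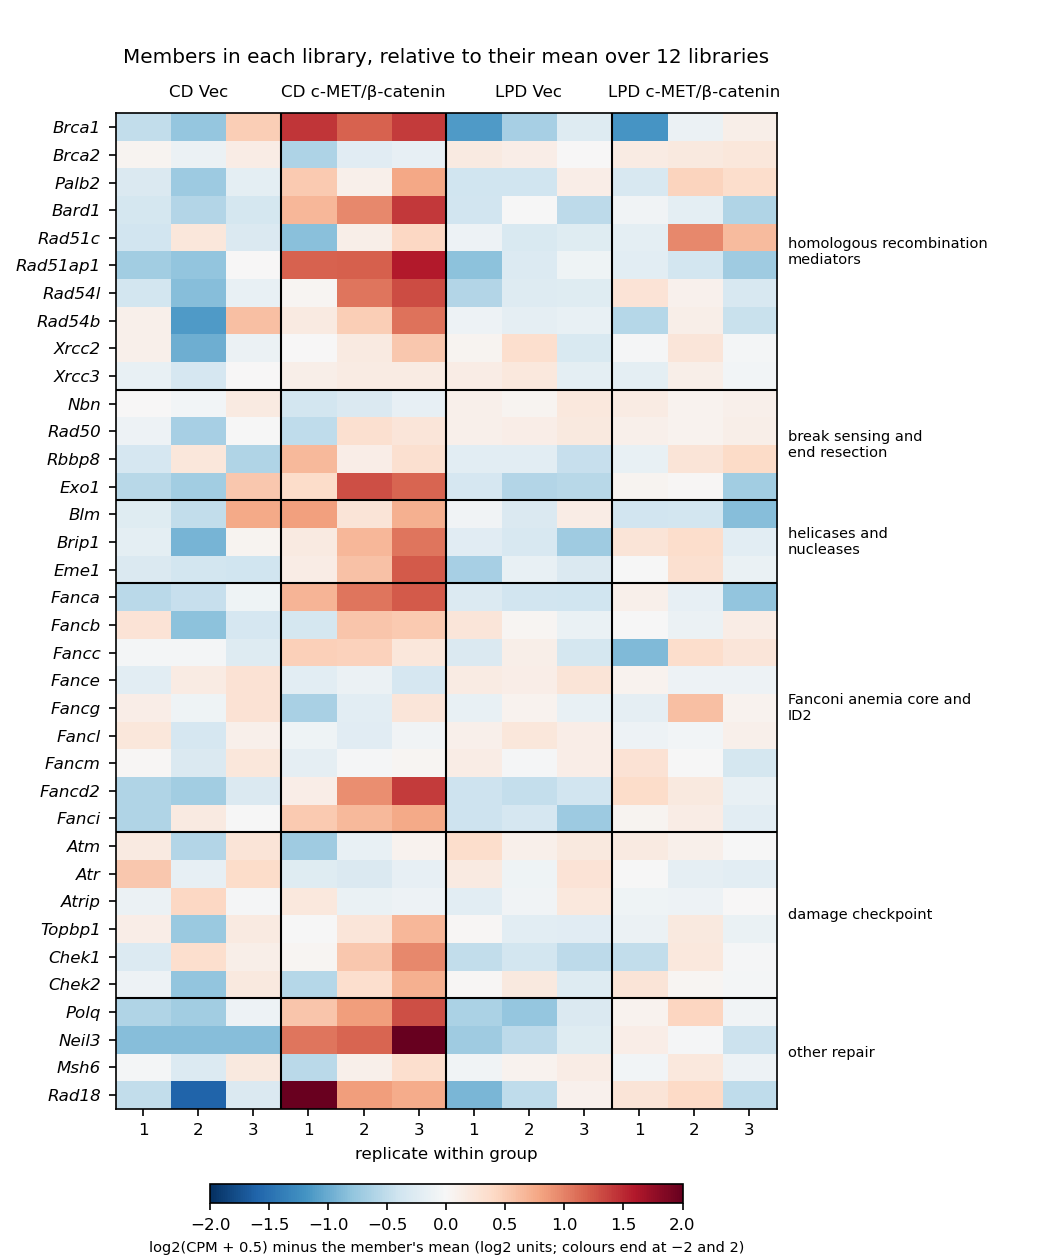
Each row is 1 of the 36 members and each column 1 of the 12 liver libraries, grouped by diet and injection; colour gives log2(CPM + 0.5) minus the member's mean over the 12 libraries. The 3 CD c-MET/β-catenin columns are red for Brca1, Bard1, Rad51ap1, Fanca, Polq, Neil3 and Rad18, whereas Fance, Fancl, Fancm and Atrip stay near white in all groups.

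On CD, 5 of 10 recombination mediators, 3 of 9 Fanconi anemia genes, 2 of 3 helicase and nuclease genes and 3 of 4 genes of other repair routes were higher in the c-MET/β-catenin livers than in those given vector. None of the 6 checkpoint genes and none of the 4 genes of break sensing and end resection was called higher, and whether the role groups differ was not tested. Of the 36 members, 13 were higher (36.1%), against 18.7% of all genes tested, and 2 were lower (5.56%), against 16.7%. In total 15 members were called at an adjusted p under 0.05 (41.7%), against 35.4% of all genes tested, by edgeR's quasi-likelihood F test with Benjamini-Hochberg adjustment over all 13947 genes. At an unadjusted p under 0.05 there were 18 members, against 45.1% of all genes. The median log2 fold change was 0.63 over the members and -0.01 over all genes. All 3 libraries of 1 group lay above all 3 of the other for 15 members in the higher direction and 3 in the lower, against 22.2% and 20.4% of all genes. Those without a call were Xrcc3 and Fancc above and Brca2 below. Of the 13 higher members, 6 are among the 7 that passed the filter mainly through the CD c-MET/β-catenin livers, so these had to be high there to be tested at all. Since the list was chosen with earlier results known, the shares of members against all genes are no independent test.

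The count of 15 depended on how the groups were set against each other. Scaling by library totals only shifted the median of all genes from -0.01 to 0.28 and gave 16 members higher and 0 lower, of which 13 were called in both and Rbbp8 (0.91, adjusted p = 0.00906), Topbp1 (0.70, adjusted p = 0.0472) and Xrcc3 (0.61, adjusted p = 0.0236) with that scaling only. A fit to the CD groups alone tested 35 members and called 8, all higher, which is 22.9% of the members against 22.2% of all genes in that fit. The share of members called was below that of all genes without CD c-MET/β-catenin replicate 3 or CD Vec replicate 1 (27.8% for both, against 33.5% and 30.8%). The header of the count table numbers the datasets in 3 runs whose meaning is not stated. Run 1 held CD c-MET/β-catenin replicates 1 and 2, and run 3 held CD Vec replicates 1 and 2. With a term for the runs, Bard1, Fancd2 and Neil3 remained called (8.33%, against 6.78% of all genes). Of the 12 that were not, Brca1 had a smaller log2 fold change in that fit, 1.10 (adjusted p = 0.31), as had Rad18 at 1.25 (adjusted p = 0.418) and Rad51ap1 at 2.31 (adjusted p = 0.0605). The values of Fanca (2.0), Polq (2.44), Rad54l (2.47), Eme1 (2.74), Fanci (1.10), Palb2 (1.57) and Brip1 (1.48) lay within 1 SE of those without the term, with adjusted p of 0.0674 to 0.251, and those of Atr (-0.49) and Nbn (-0.30) did as well. Within run 2, which held 1 liver of each CD group, the median difference of the 13 higher members was 1.39 on the log2(CPM + 0.5) scale, against 1.35 over all libraries. Since the CD groups did not overlap in any called member, the direction within the run was given beforehand. The part of the runs in the CD comparison was not tested beyond these values.

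**Figure D2:**
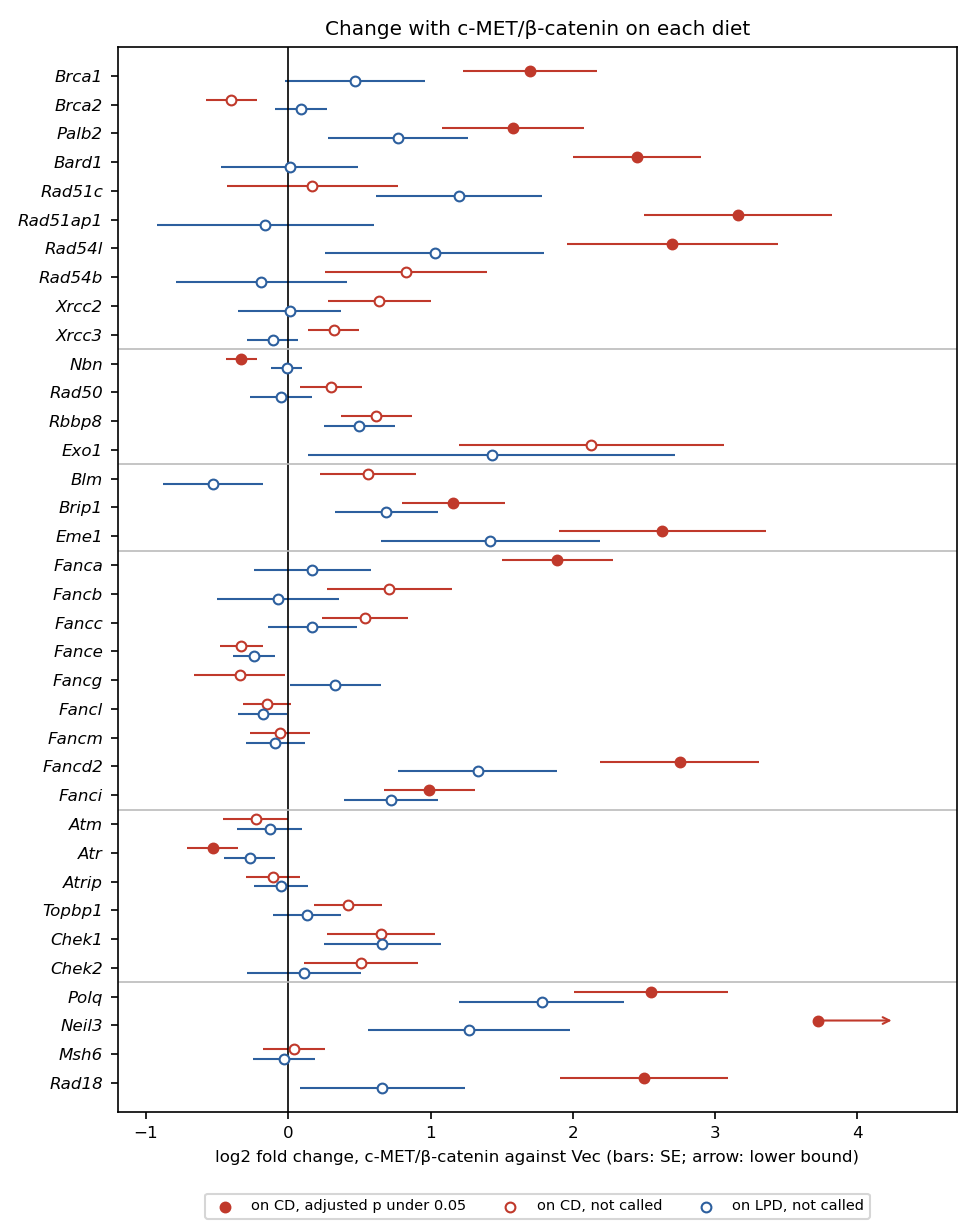
Log2 fold change of each member in c-MET/β-catenin against Vec livers (x axis), on CD in red and on LPD in blue; bars are standard errors, filled points have an adjusted p under 0.05 and the arrow marks the lower bound for Neil3. On CD 13 filled points lie right of 0 and 2 (Nbn and Atr) left of it, while no LPD point is filled.

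Promoter sequences are shown for members that moved together on CD and for Atr, which moved the other way. Of the 36 members, 29 matched a RefSeq promoter window on GRCm38.p6, which runs from 250 bases before a start site to 50 after it. For Bard1 and Brip1 the start site of the window lies inside the annotated gene. Windows were searched on both strands for E2F words (TTTCCCGC, TTTCGCGC, TTTGCCGC or TTTGGCGC), the CCAAT box (CCAAT) and the cell cycle homology region (TTTGAA or TTCGAA), short words found in many cell cycle promoters. None of these words contains another. In the stretches below, printed 5′ to 3′ along the gene's strand and lying outside the annotated gene, capitals mark these words, with ATTGG as CCAAT on the opposite strand.
Brca1, chr11:101551956-101552075, minus strand: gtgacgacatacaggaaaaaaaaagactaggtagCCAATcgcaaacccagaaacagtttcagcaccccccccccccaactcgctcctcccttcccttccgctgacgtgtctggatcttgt
Brip1, chr11:86201224-86201313, minus strand: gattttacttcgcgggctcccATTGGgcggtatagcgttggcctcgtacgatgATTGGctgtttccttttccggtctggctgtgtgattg
Bard1, chr1:71103143-71103222, minus strand: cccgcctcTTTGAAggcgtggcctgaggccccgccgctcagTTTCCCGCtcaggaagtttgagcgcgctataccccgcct
Neil3, chr8:53639206-53639305, minus strand: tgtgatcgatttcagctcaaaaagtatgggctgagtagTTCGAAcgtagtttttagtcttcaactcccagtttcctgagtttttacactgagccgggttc
Atr, chr9:95857357-95857456, plus strand: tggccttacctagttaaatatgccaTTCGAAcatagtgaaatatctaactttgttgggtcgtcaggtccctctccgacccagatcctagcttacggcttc
Neil3 and Atr share the word TTCGAA, although Neil3 was higher and Atr lower on CD. Members and protein-coding genes were counted per gene, once if any of a gene's windows held the word. The share of all 32851 windows was counted per window. An E2F word was found in 7 of 29 members with a window (24.1%), against 3.29% of 17492 protein-coding genes and 2.26% of all windows. It was present in 1 of 12 members higher on CD, Bard1, and in 6 of 17 other members, among them Brca2, Fancg and Chek2. The CCAAT box was in 55.2% of the 29 members, against 42.3% of protein-coding genes and 37.4% of all windows. The cell cycle homology region was in 17.2%, against 20.2% and 19.2%. That region was in 4 of 12 members higher on CD (33.3%) and in 1 of 17 others (5.88%), and the CCAAT box in 6 of 12 and in 10 of 17. Whether these shares differ was not tested.

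Among the 10 homologous recombination mediators, 5 were higher in CD c-MET/β-catenin livers and none lower, with a median log2 fold change of 1.20. Brca1 (Entrez 12189, chr11:101488761-101551955), whose protein directs broken ends into recombination, was at 1.48, 1.14 and 3.44 CPM in the CD Vec livers and at 7.05, 5.87 and 6.85 CPM in the CD c-MET/β-catenin livers. The groups did not overlap, and the change was 1.70 on the log2 scale (SE 0.47, adjusted p = 0.0147). Bard1 (Entrez 12021, chr1:71027535-71103141), the obligate partner of BRCA1, was at 0.36, 0.23 and 0.36 CPM in Vec and at 1.24, 1.63 and 2.43 CPM with the oncogenes. Its lowest oncogene liver thus lay above the highest Vec liver, and the change was 2.45 on the log2 scale (SE 0.45, adjusted p = 0.0014). Palb2 (Entrez 233826), which bridges BRCA1 and BRCA2, went from 0.41, 0.17 and 0.47 CPM to 1.10, 0.69 and 1.39 CPM, or 1.58 on the log2 scale (SE 0.50, adjusted p = 0.0292).

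Rad51ap1 (Entrez 19362, chr6:126923415-126939621), which stimulates strand pairing, was counted 2, 1 and 9 times in the CD Vec livers, or 0.10, 0.06 and 0.47 CPM. It reached 1.70, 1.71 and 2.40 CPM in the CD c-MET/β-catenin livers, or 3.16 on the log2 scale (SE 0.66, adjusted p = 0.00322). Rad54l (Entrez 19366), a motor protein that remodels the recombining strands, was at 0.20, 0 and 0.31 CPM in Vec and at 0.43, 1.39 and 1.72 CPM with the oncogenes. The change was 2.70 on the log2 scale (SE 0.74, adjusted p = 0.0147). Brca2, which works with PALB2, lay on the other side of 0. It was at 6.16, 5.40 and 6.61 CPM in Vec and at 3.67, 4.98 and 5.20 CPM with the oncogenes, so that all oncogene livers lay below all Vec livers, but the log2 fold change of -0.40 (SE 0.18) missed the threshold (adjusted p = 0.107). The strand exchange cofactors Rad51c (0.17), Xrcc2 (0.64) and Xrcc3 (0.32) and the RAD54 relative Rad54b (0.83) were not called, with adjusted p of 0.182 to 0.851 for these genes.

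Several of these values leaned on single livers. CD Vec replicate 3 was the highest of its group for Brca1, Rad51ap1, Rad54l and Polq, and without it their log2 fold changes on CD became 2.33, 4.51, 3.40 and 3.31, all still called. Brca1 lost its call without CD Vec replicate 1 (1.52, adjusted p = 0.0551). Palb2 was not called when CD c-MET/β-catenin replicate 1 or 3 or CD Vec replicate 1 or 2 was left out, at 1.26 to 1.70 with adjusted p of 0.0582 to 0.0933. Bard1, Rad51ap1 and Rad54l were called in all 12 fits that each left out 1 library, but Rad54l was not called in the fit to the CD groups alone (2.67, adjusted p = 0.0567).

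**Figure D3:**
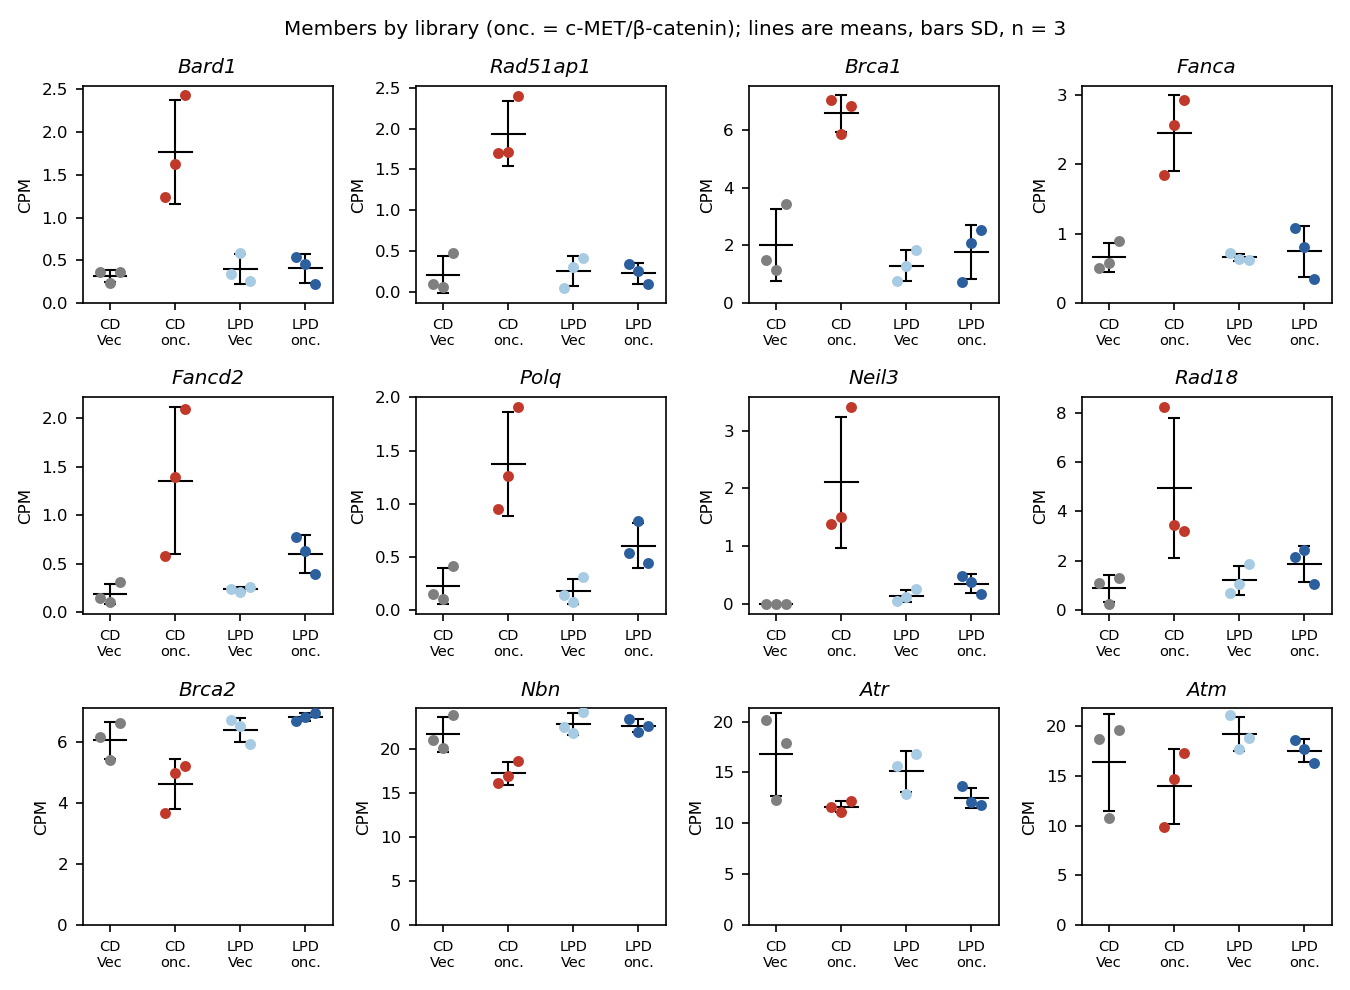
Level of 12 members in each library (points, CPM, linear axes that differ between panels) by group, with the group mean as a line and the SD as bars (n = 3). In the upper 8 panels the CD c-MET/β-catenin points lie above all CD Vec points; in the lower panels Brca2, Nbn and Atr lie below theirs and Atm overlaps them.

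In break sensing and end resection, 1 of 4 genes was called on CD, and it was lower. Nbn (Entrez 27354, chr4:15957587-15992589), which recruits ATM to breaks, was at 21.0, 20.1 and 23.9 CPM in Vec and at 16.1, 17 and 18.6 CPM with the oncogenes. The groups did not overlap and the change was -0.33 on the log2 scale (SE 0.11, adjusted p = 0.0377). That call rested on the scaling, since library totals only gave -0.05 (adjusted p = 0.786), and it was lost without any of 8 of the 12 libraries, at -0.25 to -0.35. Rad50, its partner in the complex, had 0.30 on the log2 scale (SE 0.22, adjusted p = 0.319), with 7.85 CPM in CD Vec replicate 2 and 8.72 CPM in CD c-MET/β-catenin replicate 1 as the lowest livers. Rbbp8, which encodes the resection factor CtIP, had 0.62 (SE 0.25, adjusted p = 0.0713) and passed without CD Vec replicate 2 (0.90, adjusted p = 0.0118). Exo1 was counted 1, 0 and 13 times in Vec and 19, 36 and 35 times with the oncogenes. Its log2 fold change of 2.13 (SE 0.93) missed the threshold (adjusted p = 0.0961). Without CD Vec replicate 3, which left counts of 1 and 0 in Vec, the value was 5.11 and the gene was called (adjusted p = 0.0107).

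Of the 3 helicase and nuclease genes, 2 were higher on CD. Brip1 (Entrez 237911, chr11:86058136-86201215), a helicase that binds BRCA1, was at 2.04, 1.02 and 2.50 CPM in Vec and at 2.80, 4.08 and 5.62 CPM with the oncogenes, or 1.16 on the log2 scale (SE 0.36, adjusted p = 0.0254). It was not called when CD c-MET/β-catenin replicate 2 or 3 or CD Vec replicate 1 or 2 was left out, at 0.86 to 1.23 with adjusted p of 0.0507 to 0.0938. Eme1 (Entrez 268465), a subunit of the MUS81 nuclease that cuts joined DNA molecules, was counted 3, 2 and 2 times in Vec and 13, 17 and 36 times with the oncogenes. The ratio of summed counts, scaled by the summed library sizes, was 6.20, with a 95% counting interval of 2.85 to 16.0. The adjusted p of the edgeR test was 0.0145. With replicate 3 of CD c-MET/β-catenin left out, the fitted log2 fold change went from 2.63 to 2.03 and the call was lost (adjusted p = 0.0549). Blm, the helicase that dissolves joined molecules, overlapped between the groups, since CD Vec replicate 3 reached 6.72 CPM against 3.11 and 2.56 CPM in the other two. The change was 0.56 on the log2 scale (SE 0.34, adjusted p = 0.224), and 1.10 with that liver left out (adjusted p = 0.0155).

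Of the 9 Fanconi anemia genes 3 were higher, both genes of the ID2 complex and, in the core, Fanca. Fancd2 (Entrez 211651, chr6:113531640-113597020) was at 0.15, 0.11 and 0.31 CPM in Vec and at 0.58, 1.39 and 2.10 CPM with the oncogenes, or 2.75 on the log2 scale (SE 0.56, adjusted p = 0.00257). Fanci (Entrez 208836), its partner, went from 0.66, 1.48 and 1.25 CPM to 2.02, 2.24 and 2.47 CPM, or 0.99 on the log2 scale (SE 0.32, adjusted p = 0.0292). Fanci was not called when CD c-MET/β-catenin replicate 2 or 3 or CD Vec replicate 1 was left out, at 0.72 to 0.99 with adjusted p of 0.0607 to 0.0976. Fanca (Entrez 14087, chr8:123266294-123318651), a scaffold of the core, went from 0.51, 0.57 and 0.89 CPM to 1.85, 2.57 and 2.92 CPM. The change was 1.89 on the log2 scale (SE 0.39, adjusted p = 0.00289), and it was called in all 12 fits without 1 library, as was Fancd2. The 6 other genes, of which Fance was called lower without CD Vec replicate 1 (-0.47, adjusted p = 0.0373), had log2 fold changes of -0.34 for Fancg to 0.71 for Fancb, with adjusted p of 0.114 to 0.855, and included Fancl, the ubiquitin ligase of the core, at -0.15 (SE 0.17, 95% interval -0.48 to 0.18).

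None of the 6 checkpoint genes was called higher on CD, except Topbp1 with library totals only, and Atr was lower. Atr (Entrez 245000, chr9:95857597-95953217), the kinase of stalled forks, was at 20.2, 12.3 and 17.9 CPM in Vec and at 11.6, 11.1 and 12.2 CPM with the oncogenes. The change was -0.53 on the log2 scale (SE 0.18, adjusted p = 0.0369), with CD Vec replicate 2 close to the oncogene livers. The call was lost in 6 of the 12 fits without 1 library, at -0.38 to -0.57, and with library totals only (-0.25, adjusted p = 0.316). Atm, the kinase of broken ends, was at 18.8, 10.8 and 19.6 CPM in Vec and at 9.88, 14.7 and 17.3 CPM with the oncogenes, with -0.23 on the log2 scale (SE 0.23, adjusted p = 0.474). The effector kinases Chek1 (0.65, 95% interval -0.10 to 1.40) and Chek2 (0.51, -0.27 to 1.30) were not called, and their intervals include both 0 and a value above 1 on the log2 scale. Atrip, the partner of ATR, had -0.11 (SE 0.19), and Topbp1, its activator, 0.42 (SE 0.24).

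Of the 4 genes of other repair routes, 3 were higher on CD. Neil3 (Entrez 234258, chr8:53586867-53639065), a glycosylase that unhooks linked strands at forks, was not counted at all in the 3 CD Vec livers and was at 1.39, 1.51 and 3.41 CPM in the CD c-MET/β-catenin livers. Against a floor of 3 counts per library, or 0.16 CPM, it was at least 13.1-fold higher (adjusted p = 0.000285). Polq (Entrez 77782), the polymerase of end joining at resected breaks, went from 0.15, 0.11 and 0.42 CPM to 0.95, 1.26 and 1.91 CPM, or 2.55 on the log2 scale (SE 0.54, adjusted p = 0.00339). Rad18 (Entrez 58186), a ubiquitin ligase of damage bypass, went from 1.07, 0.23 and 1.30 CPM to 8.23, 3.43 and 3.18 CPM, or 2.50 on the log2 scale (SE 0.59, adjusted p = 0.00627). Its highest liver was CD c-MET/β-catenin replicate 1, and the value without that library was 1.91 (adjusted p = 0.0256). Msh6, a mismatch sensor, had 0.04 (SE 0.22, 95% interval -0.38 to 0.46).

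Reads of 12 members can also come from a gene whose exons overlap theirs, in nearly all cases on the opposite strand, and the strand setting of the counting is not stated. Among the members called higher, Rad54l overlaps Lrrc41, Eme1 overlaps Lrrc59 and Mrpl27, Fanca overlaps Zfp276, Fancd2 overlaps Fancd2os and Fanci overlaps Polg. None of the tested partners was called higher. On CD their log2 fold changes were 0.14 for Lrrc41, 0.37 for Lrrc59, -0.20 for Mrpl27 and -0.23 for Polg, none called, and Zfp276 was lower (-0.90, adjusted p = 0.0168). Fancd2os was not tested.

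All members higher on CD were at a low level in livers outside the comparison, but not all members at a low level were called. In the LPD Vec livers, which entered neither side of the CD contrast, 18 members had a mean under 2 CPM, and 13 of these were higher on CD (72.2%), against 33.6% of all 3019 genes under that level. The others under 2 CPM were Rad51c, Rad54b, Exo1, Fancb and Chek1, and none of the 18 members at or above it was higher, against 14.5% of 10928 genes. The 7 members that passed the filter mainly through the CD c-MET/β-catenin livers are all under 2 CPM and make up 6 of the 13. Without them 7 of 11 were higher (63.6%), against 28.7% of the 2515 genes that passed in the same way. Across the 36 members, the level per kilobase in LPD Vec livers and the log2 fold change on CD had a Spearman correlation of -0.83. It was -0.33 across all genes tested, with CPM as the level, where the members gave -0.86. Without the 7 members the correlation was -0.72 over 29 members, and with CPM as the level -0.77, against -0.27 across all genes that passed in the same way. Genes are not independent replicates, and each point shares its libraries with all others.

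**Figure D4:**
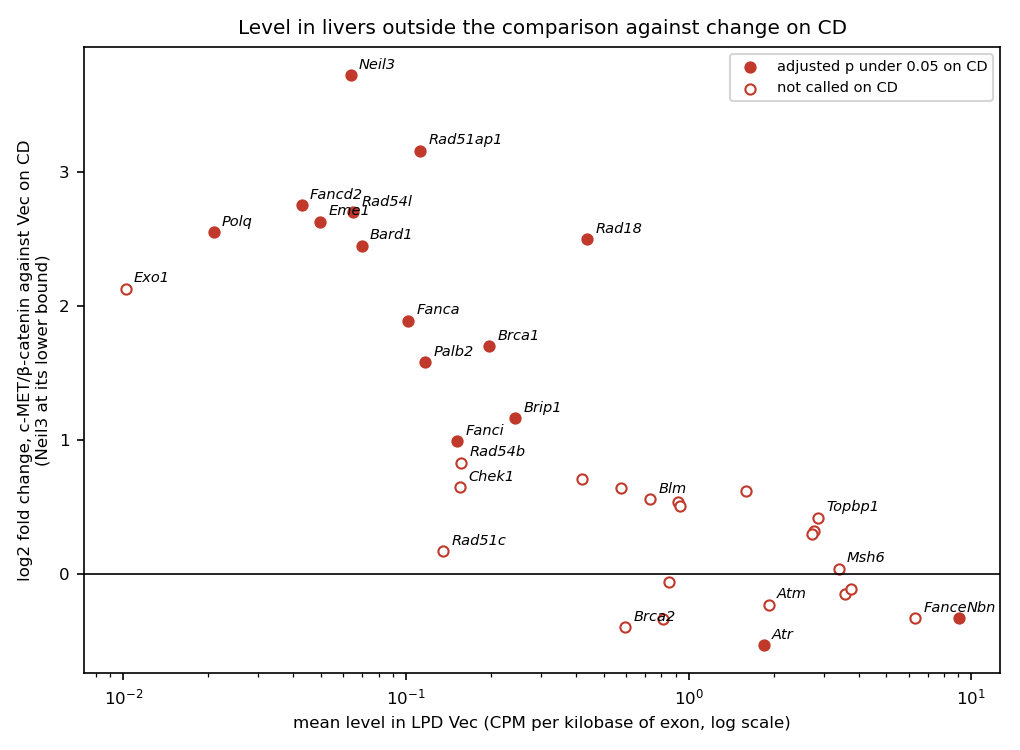
Each point is a member, with its mean level in the LPD Vec livers (x axis, CPM per kilobase of exon, log scale) and its log2 fold change in c-MET/β-catenin against Vec livers on CD (y axis; Neil3 at its lower bound); filled points have an adjusted p under 0.05. The members with the largest changes lie at the left, and Atm, Atr, Msh6, Fance and Nbn lie at the right near or below 0.

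Other genes of the same pathways, from lists that were likewise chosen with earlier results known, were counted for comparison. Of 71 tested genes of recombination, the Fanconi pathway and the checkpoint that are not members, 17 were higher on CD (23.9%) and 2 lower, with a median log2 fold change of 0.13. Among those called in recombination were Parpbp (3.51, adjusted p = 0.00955) and Fignl1 (1.94, adjusted p = 0.0375). The most changed in the Fanconi list were Cenps (3.31, adjusted p = 0.000548), Ube2t (1.81, adjusted p = 0.016) and Mad2l2 (1.59, adjusted p = 0.000347). Ube2t encodes the ubiquitin conjugating enzyme that works with FANCL, whose own gene was not called. In the checkpoint list they were Cdkn1a (4.81, adjusted p = 0.00214), Cdc25c (4.80, adjusted p = 0.000321) and Clspn (2.90, adjusted p = 0.0026), the last of which encodes the adaptor between ATR and CHK1. Of 43 genes of end joining, mismatch, base excision and nucleotide excision repair, 4 were higher (9.3%) and 2 lower, with a median of -0.09. The higher ones were Polm (0.62), Pms2 (0.73), Parp2 (0.48) and Cetn2 (0.45) and the lower ones Mlh3 (-0.77) and Nthl1 (-0.90), with adjusted p of 0.0215 to 0.0437.

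**Figure D5:**
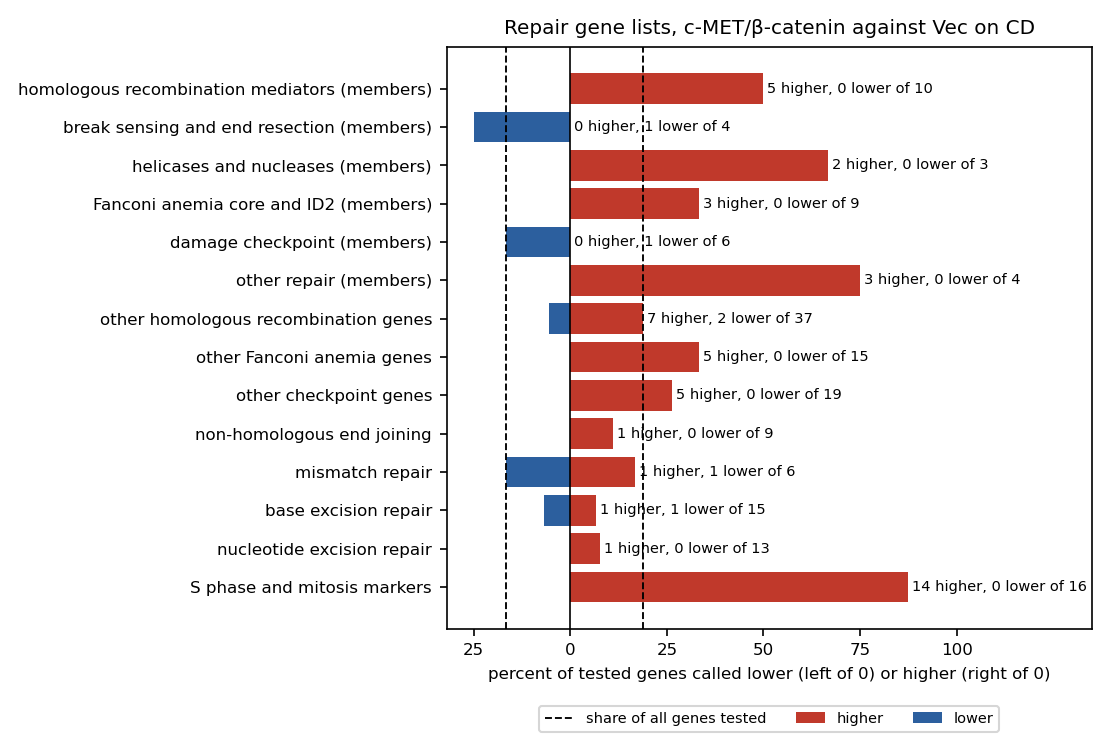
Share of the tested genes of each list called higher (red, right of 0) or lower (blue, left of 0) in c-MET/β-catenin against Vec livers on CD, with counts beside the bars; dashed lines give the share of all genes tested, 18.7% higher and 16.7% lower. Recombination mediators (5 of 10) and other repair members (3 of 4) lie beyond the right line, and the base and nucleotide excision lists (1 of 15 and 1 of 13 higher) short of it.

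Markers of S phase and mitosis moved with these genes. Of 16, 14 were higher on CD, with a median log2 fold change of 3.65 and the highest values for Ccnb1 (5.23), Bub1 (4.79) and Mki67 (4.73), and their summed level was 46.7 to 73.1 CPM in CD Vec and 233 to 340 CPM once the oncogenes were given. The sum was 49.6 to 54.0 CPM in LPD Vec and 67.4 to 113 CPM in LPD c-MET/β-catenin livers. Markers of other cell types moved on CD as well. Of 4 neutrophil markers, S100a8 and S100a9 were higher and Ly6g was at 0 in both CD groups, with a sum of 1.36 to 2.50 CPM in Vec and 4.90 to 15 CPM with the oncogenes. Of 4 erythroid markers, 3 were higher, but the sum overlapped, at 168 to 221 CPM in Vec and 74.3 to 264 CPM with the oncogenes. Of 5 stellate markers, Col1a1 and Acta2 were higher and Lrat and Dcn lower, with a sum of 143 to 183 CPM in Vec and 81.9 to 295 CPM with the oncogenes. Cd68 was higher among 5 macrophage markers, whose sum was 89.5 to 213 CPM in Vec and 174 to 314 CPM with the oncogenes. Krt19 was higher among 4 cholangiocyte markers, with sums of 7.71 to 8.53 and 10.1 to 13.3 CPM, and Cd8a was higher and Cd4 lower among 6 T and NK cell markers, with sums of 2.50 to 5.47 and 3.06 to 5.71 CPM. Of 6 hepatocyte markers 1 was higher and 2 were lower, at sums of 117000 to 118000 and 111000 to 131000 CPM, and no B cell or endothelial marker was called. The part of dividing cells and of other cell types in the change of the members was not tested.

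On LPD, no member was called in c-MET/β-catenin against Vec livers (0 of 36), against 1.32% of all genes tested. At an unadjusted p under 0.05, 2 members passed, or 5.56%, against 11.1% of all genes, and DESeq2 also called 0. The median log2 fold change was 0.12 over the members and 0.01 over all genes, and the lowest adjusted p was 0.215. The 2 members at the unadjusted threshold were Polq and Fancd2. Polq was at 0.14, 0.08 and 0.31 CPM in LPD Vec and at 0.54, 0.84 and 0.44 CPM in LPD c-MET/β-catenin livers, or 1.78 on the log2 scale (SE 0.58, adjusted p = 0.215). Fancd2 was at 0.24, 0.21 and 0.26 CPM in Vec and at 0.78, 0.63 and 0.39 CPM with the oncogenes, or 1.33 on the log2 scale (SE 0.56, adjusted p = 0.384). Both groups were apart in both genes, as they were for Rbbp8, Brip1, Eme1 and Fanci, so that 6 members did not overlap in the higher direction, against 13.5% of all genes, and 2 in the lower, Blm and Fance, against 11.6%.

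The members with the largest changes on CD had a wide range of values on LPD. Rad51ap1 had -0.16 (SE 0.76), Bard1 0.01 (SE 0.48) and Fanca 0.17 (SE 0.41) on LPD, with their values overlapping between the groups. Rad54l had 1.03 (SE 0.77), Eme1 1.42 (SE 0.77) and Neil3 1.27 (SE 0.71), with intervals that include both 0 and a value above 2 on the log2 scale. The value seen on CD lay within the LPD interval for Eme1 (-0.09 to 2.92) and Polq (0.64 to 2.93). It lay outside that interval for Bard1 (-0.92 to 0.95), Fanca (-0.62 to 0.97), Rad51ap1 (-1.64 to 1.32), Rad18 (-0.47 to 1.79) and Fancd2 (0.24 to 2.43), and just outside it for Rad54l (-0.49 to 2.55). This leaves out the error of the CD value and is no test of a difference between the diets. In the interaction test given below, only Bard1 of these was called. Rad18 (-1.84, adjusted p = 0.18), Fancd2 (-1.42, adjusted p = 0.298) and Rad54l (-1.67, adjusted p = 0.376) were not. Rad51c, which was not called on CD (0.17, 95% interval -1.01 to 1.35), was at 0.67, 0.51 and 0.56 CPM in LPD Vec and at 0.59, 1.93 and 1.44 CPM in LPD c-MET/β-catenin livers, or 1.20 on the log2 scale (SE 0.58, adjusted p = 0.49). On LPD, 6 of the 16 S phase and mitosis markers were called, the most changed being Ccnb1 (3.53, adjusted p = 0.0143), Mki67 (3.27, adjusted p = 0.0105) and Foxm1 (2.92, adjusted p = 0.0373). Among those not called were Mcm2 (0.12), Mcm5 (-0.24), Pcna (0.07), Rrm2 (0.12), Tyms (0.13) and E2f1 (0.27). Bub1 (3.12), Plk1 (2.44), Top2a (1.86) and Cdk1 (1.83) were not called either.

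In Vec livers, the diet was not followed by a called change in any member (0 of 36), against 0.308% of all genes tested. At an unadjusted p under 0.05, 1 member passed, against 9.87% of all genes, and DESeq2 called 0. That member was Neil3, which had 0 counts in each CD Vec liver and 1, 3 and 5 counts in the LPD Vec livers, too few to give a fold change. The median log2 fold change was 0.08 over the members. Rad50 and Neil3 were higher in all LPD Vec livers than in all CD Vec livers, against 8.13% of all genes, and Chek1 was lower, against 9.02%. Chek1 was at 0.76, 1.42 and 1.15 CPM on CD and at 0.58, 0.68 and 0.56 CPM on LPD, or -0.86 on the log2 scale (SE 0.42, adjusted p = 0.537).

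With the oncogenes, the diets also differed. In c-MET/β-catenin livers, Brca1, Bard1, Rad51ap1, Fanca, Neil3 and Blm were lower on LPD than on CD, and Brca2 and Nbn were higher. Of the 5 recombination mediators higher on CD with the oncogenes, Palb2 and Rad54l were not among them. Of the 36 members, 6 were lower (16.7%), against 11.3% of all genes tested, and 2 were higher (5.56%), against 8.66%. The 8 calls make 22.2% of the members, against 20.0% of all genes, a share near the background, and at an unadjusted p under 0.05 there were 16 members (44.4%), against 33.7%. The median log2 fold change was -0.39 over the members and -0.01 over all genes. In 12 members all LPD livers lay below all CD livers and in 3 above, against 20.1% and 19.2% of all genes. This comparison shares the CD c-MET/β-catenin livers with the CD comparison above, so that a high value in them enters both.

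Bard1 was at 1.24, 1.63 and 2.43 CPM in CD and at 0.54, 0.46 and 0.22 CPM in LPD c-MET/β-catenin livers, and differed by -2.11 on the log2 scale (SE 0.42, adjusted p = 0.00543). The LPD livers lay in the range of the Vec livers of either diet, 0.23 to 0.59 CPM, apart from LPD c-MET/β-catenin replicate 3 just below it. Rad51ap1 was at 1.70, 1.71 and 2.40 CPM on CD and at 0.34, 0.25 and 0.09 CPM on LPD, a difference of -3.09 (SE 0.64, adjusted p = 0.00639). Brca1 was at 7.05, 5.87 and 6.85 CPM on CD and at 0.73, 2.07 and 2.54 CPM on LPD, a difference of -1.88 (SE 0.47, adjusted p = 0.0157). The lowest Brca1 liver was LPD c-MET/β-catenin replicate 1, and without it the difference was -1.51 (adjusted p = 0.0503).

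Fanca was at 1.85, 2.57 and 2.92 CPM on CD and at 1.08, 0.81 and 0.35 CPM on LPD, a difference of -1.71 (SE 0.38, adjusted p = 0.00874). Neil3 was at 1.39, 1.51 and 3.41 CPM on CD and at 0.49, 0.39 and 0.17 CPM on LPD, a difference of -2.57 (SE 0.54, adjusted p = 0.00981). Blm, not called in the CD comparison, was at 7.11, 4.61 and 6.51 CPM on CD and at 2.79, 2.84 and 1.88 CPM on LPD, a difference of -1.28 (SE 0.35, adjusted p = 0.0224). Brca2 was at 3.67, 4.98 and 5.20 CPM on CD and at 6.69, 6.81 and 6.95 CPM on LPD, a difference of 0.56 (SE 0.18, adjusted p = 0.0429). Nbn was at 16.1, 17 and 18.6 CPM on CD and at 23.4, 22 and 22.6 CPM on LPD, a difference of 0.40 (SE 0.11, adjusted p = 0.028). Fancd2 (-1.15), Polq (-1.15), Rad54l (-1.47), Rad18 (-1.40), Eme1 (-1.21), Fanci (-0.83), Brip1 (-0.60) and Palb2 (-0.43), all higher on CD with the oncogenes, were not called between the diets, with adjusted p of 0.079 to 0.543. Of these, Fancd2 was called in the fit that left out CD c-MET/β-catenin replicate 1, at -1.53 (adjusted p = 0.0245), Rad18 without CD Vec replicate 2 (-1.40, adjusted p = 0.0458) and by DESeq2 on all libraries (-1.41, adjusted p = 0.0484), and Fanci without CD Vec replicate 1 (-0.83, adjusted p = 0.0486). Leaving out CD Vec replicate 2 also gave a call for Rad54b (-1.28, adjusted p = 0.0378), and leaving out CD Vec replicate 3 one for Exo1 (-2.29, adjusted p = 0.0498).

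The calls between the diets were less firm for the higher genes. Brca2 was called in 2 of 12 fits without 1 library and Nbn in 7 of 12, and library totals only called neither (0.49, adjusted p = 0.0912, and 0.32, adjusted p = 0.0863), which left 6 members lower and 0 higher. The count was 4 when LPD c-MET/β-catenin replicate 1 was left out and 5 when its replicate 3 was. Blm lost its call when either of these livers was left out (-1.35, adjusted p = 0.0547, and -1.11, adjusted p = 0.0922), and also in the fit that dropped replicate 1 of CD c-MET/β-catenin (-1.15, adjusted p = 0.0644). With the term for the runs of dataset numbers 3 remained, Bard1, Rad51ap1 and Neil3. Brca1 (-1.93, adjusted p = 0.0539), Fanca (-1.97, adjusted p = 0.0542) and Blm (-1.38, adjusted p = 0.1) had differences at least as large as without the term, and those of Brca2 (0.39, adjusted p = 0.492) and Nbn (0.28, adjusted p = 0.395) were smaller. Within run 2, with 1 CD and 3 LPD livers, the median difference of the 6 lower members was -1.76 on the log2(CPM + 0.5) scale, against -1.43 over all libraries, and its sign was given beforehand, since the groups did not overlap. The neutrophil sum was 1.40 to 2.27 CPM and the erythroid sum 101 to 150 CPM in the LPD c-MET/β-catenin livers, with S100a8, S100a9 and 3 of 4 erythroid markers called lower on LPD than on CD. Of 5 macrophage markers only Cd68 was called, lower on LPD, and their sum overlapped, at 190 to 335 CPM on LPD and 174 to 314 CPM on CD. Of 4 cholangiocyte markers only Krt19 was called, also lower, with sums of 5.68 to 6.25 CPM on LPD and 10.1 to 13.3 CPM on CD. Of 5 stellate markers Col1a1 and Acta2 were lower while Lrat (1.26) and Dcn (1.07) were higher, with sums of 117 to 186 CPM on LPD and 81.9 to 295 CPM on CD. Of the hepatocyte markers 1 was higher and 2 were lower. Their part in the difference between the diets was not tested. Beside these genes, 14 of 16 S phase and mitosis markers were lower on LPD, and among other genes of recombination, the Fanconi pathway and the checkpoint 12 of 71 were lower (16.9%) and 1 higher (1.41%), against the 11.3% and 8.66% of all genes.

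Whether the oncogene effect differed by diet was tested as an interaction, the log2 fold change on LPD minus that on CD. Of the 36 members, 2 were called (5.56%), both lower, against 8.91% of all genes tested in either direction, 4.42% lower and 4.49% higher. At an unadjusted p under 0.05 there were 6 members (16.7%), against 25.8%. The median was -0.42 over the members and 0.02 over all genes. Bard1 rose by 2.45 on CD and had 0.01 on LPD, a difference of -2.44 (SE 0.66, adjusted p = 0.0405), but it was called in 1 of 12 fits without 1 library, with adjusted p of up to 0.139. Neil3, with no count in CD Vec livers, had a difference of -2.44 or lower when the floor of 3 counts per library stands for those livers, and an adjusted p of 0.0236. That call was lost without LPD Vec replicate 2 (adjusted p = 0.0619) or 3 (0.0704). Rad51ap1 (-3.32, SE 1.03, adjusted p = 0.0653) and Fanca (-1.71, SE 0.56, adjusted p = 0.0788) missed the threshold and were called by DESeq2, which called 4 members in all. Rad51ap1 was also called without CD Vec replicate 3 (adjusted p = 0.0269) or LPD Vec replicate 1 (0.0448), and Blm without CD Vec replicate 3 (-1.64, adjusted p = 0.0328). With the term for the runs 0 members were called by edgeR, 5 at an unadjusted p under 0.05. For Fancd2 (interval -3.02 to 0.18), Polq (-2.41 to 0.88) and Eme1 (-3.43 to 1.0) a difference between the diets could not be told from none.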

How the data were processed

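RNA was extracted from frozen liver tissue and sequenced for 12 livers in 4 groups of 3. The labels describe ribosomal RNA depletion, whereas the methods describe a stranded mRNA kit. Per the labels and methods, the authors aligned reads to mm10 with HISAT2 and counted them per gene with featureCounts, and deposited whole-number counts. Versions, strand and multimapping settings are not given in the sources used here. The count table's headings use HPD for the CD samples; the titles, which say chow, were followed.

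Entrez IDs were paired with symbols for 93.1% of 27179 genes. Counts of 13947 genes that passed filterByExpr were fitted in 1 model of 4 groups with edgeR 4.0.16 in R 4.3.3 (TMM scaling with factors of 0.864 to 1.12, robust quasi-likelihood F test, Benjamini-Hochberg adjustment over all genes tested, threshold 0.05). The biological coefficient of variation was 23.2%. CPM are on the TMM scale. For genes without counts in a group a floor of 3 counts per library was used, and counting intervals (95%, exact binomial) and floors cover counting error only. Library totals were 19476209 to 31990267 counts. Within groups the log CPM of replicates correlated at 0.961 to 0.988, and the lowest chi-square per gene between replicates was 27.3, so no library was a repeat of another. On simulated data with 200 of 13947 genes changed 4-fold, the CD comparison called 86.5% of them, with 6.99% of calls false, and the interaction 69.5% and 7.33%. The changed genes were drawn over all levels, as many raised as lowered, so these shares need not hold for members at a low level.

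Members, their role groups and the other lists were chosen with earlier results of these data known. Values in every library are given for up to 10 called members with the largest change per comparison, for members with a called interaction and for at least 1 member per role. Of the other pathway lists up to 3 of the most changed called genes are named on CD, and of the S phase and mitosis markers also on LPD, apart from an item that is not reported here. Of 133 other pathway genes 132 were matched. Alternatives were DESeq2 1.42.0, its size factors, library totals only, no filter, a fit to the groups compared, each library left out, the replicate number as a block, and the runs in the table's header as a term.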

Additional observations from a re-analysis of the deposited data

Results flagged for a closer look

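Bard1 was flagged because the oncogene effect differed between the diets by the interaction test. The log2 fold change on LPD minus that on CD was -2.44 (SE 0.66, edgeR adjusted p = 0.0405), with 0.23 to 0.59 CPM in the 6 Vec livers, 1.24 to 2.43 CPM in CD and 0.22 to 0.54 CPM in LPD c-MET/β-catenin livers. The call was held in 1 of 12 fits without 1 library and was lost without the filter on low counts (adjusted p = 0.0527), with the replicate block (0.0736) and with the term for the runs (0.123). Neil3 was flagged for the same reason, with an edgeR adjusted p of 0.0236. It was counted 0 times in all 3 CD Vec livers, at 1.39 to 3.41 CPM in CD and at 0.17 to 0.49 CPM in LPD c-MET/β-catenin livers. This call was lost without LPD Vec replicate 2 (adjusted p = 0.0619) or 3 (0.0704) and with the term for the runs (0.0634).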

How the results depend on the processing

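Over 25 results for single members and 472 alternatives, 375 kept their direction and side of the threshold, 97 kept the direction but missed the threshold, and 0 reversed. The 0 called members on LPD and in Vec livers between the diets stayed at 0 under every alternative run. The 15 calls on CD were 8 in a fit to the groups compared and 3 with the term for the runs, and 10 to 15 when each library was left out. The 8 calls between the diets were 3 with the term for the runs, and 4 to 10 when each library was left out. The 2 interaction calls were 4 by DESeq2, 1 without the filter on low counts, 1 with the replicate block, 0 with the term for the runs, and 0 to 3 when each library was left out. Fewer livers or genes enter some of these fits, and the cause was not tested otherwise. With replicate numbers as a block 15 members were called on CD, 0 on LPD, 0 in Vec livers and 7 for LPD against CD with the oncogenes. Same-numbered livers of different groups deviated from their group means with correlations of -0.18 to 0.17 (18 pairs, median -0.02, 2 over 0.1), so the samples share only a number. Over all genes tested, the count of calls on CD was 4933 in the fit to all groups, 3014 in the fit to the CD groups and 945 with the term for the runs. When each library was left out, calls over all genes were 4251 to 4859 on CD. They were 1585 to 3660 between the diets with the oncogenes and 391 to 1404 for the interaction. Members near 0.1 CPM rest on 1 to 5 counts per library, which limits how small a change can be seen.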
